A study of Homo sapiens with 9 samples.

Results

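The genes described here are 42 named genes of the lysosome and of autophagy: 26 lysosomal proteins, 14 proteins of the autophagosome and 2 transcription factors that act on both. They were listed by name, with earlier results of these data known. An array measures a transcript with probe sets, groups of short probes, and 41 of the 42 genes had a probe set that carried only their symbol. GLB1, the acid beta-galactosidase, had only a probe set shared with TMPPE and is not reported. CTSO, a cathepsin, had a mean signal of 17.2, just below the minimum of 17.8 that a gene needed to be tested. The other 40 were among 12678 genes tested, and the 41 genes had 94 probe sets of their own among 54675 on the array.

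RNA came from PANC-1, an established human line of pancreatic carcinoma cells that keep ductal markers, so all groups are of 1 line. Groups of 3 arrays each were BRD7552, a small molecule given at 5 uM, for 72 h, BRD7552 for 6 h, and its solvent DMSO. Per the series' design text the dose was chosen for its effect on PDX1, a pancreatic transcription factor. No exposure time is given for the DMSO arrays, which serve both comparisons with solvent, so exposure and time in culture cannot be told apart. The labels do not say that the 3 arrays of a group came from separate cultures, and p-values reflect no more than the spread between these arrays.

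The lysosome is an acidic compartment in which hydrolases break down proteins, lipids and sugars. A proton pump in its membrane keeps it acidic, and cathepsins are its proteases. In autophagy a double membrane, the autophagosome, closes around cytoplasm and fuses with the lysosome. LC3 and related proteins are attached to that membrane, and receptors such as p62 bind cargo to them. TFEB and TFE3 are related transcription factors that bind a short DNA element, called CLEAR, near many lysosomal genes. Pancreatic carcinoma cells are known for active autophagy.

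After 72 h of BRD7552 the transcripts of several acid hydrolases were lower than in DMSO. Those of MAP1LC3B, SQSTM1 and GABARAPL2, 3 of the 14 autophagosome genes, were higher. Of the 40 genes, 4 rose, 12 fell and 24 did not pass the test. A gene is called here where limma's adjusted p was below 0.05 over all genes tested, and 26.6% of all 12678 genes were called at 72 h (8.33% higher and 18.3% lower). The share of the 40 genes called was 40%. Among the 24 lysosomal genes measured 1 rose and 11 fell, with a median log2 change of -0.15. Among the 14 autophagosome genes 3 rose and 1 fell, with a median of -0.025. The share of the 14 called was 28.6%, near that of all genes, and 8 of them had a negative and 6 a positive change. The SQSTM1 call was lost with other choices of probe set and the GABARAPL2 call with median centring, as given below. The median over all genes was -0.062, and no difference between the lists was tested. The medians moved with the normalization: the lysosomal one was -0.067 after quantile normalization and -0.062 after cyclic loess, against 0.0017 and 0.0086 over all genes. The autophagosome median turned positive under quantile normalization (0.017), cyclic loess (0.036) and median centring (0.012), and median centring left 7 of the 40 genes called.

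After 6 h, MAP1LC3B rose and the other 39 genes did not pass. Of all genes 0.473% were called at 6 h (0.363% higher and 0.11% lower). The median log2 change at 6 h was 0.025 over the lysosomal genes, 0.0037 over the autophagosome genes and -0.0009 over all genes.

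**Figure D1:**
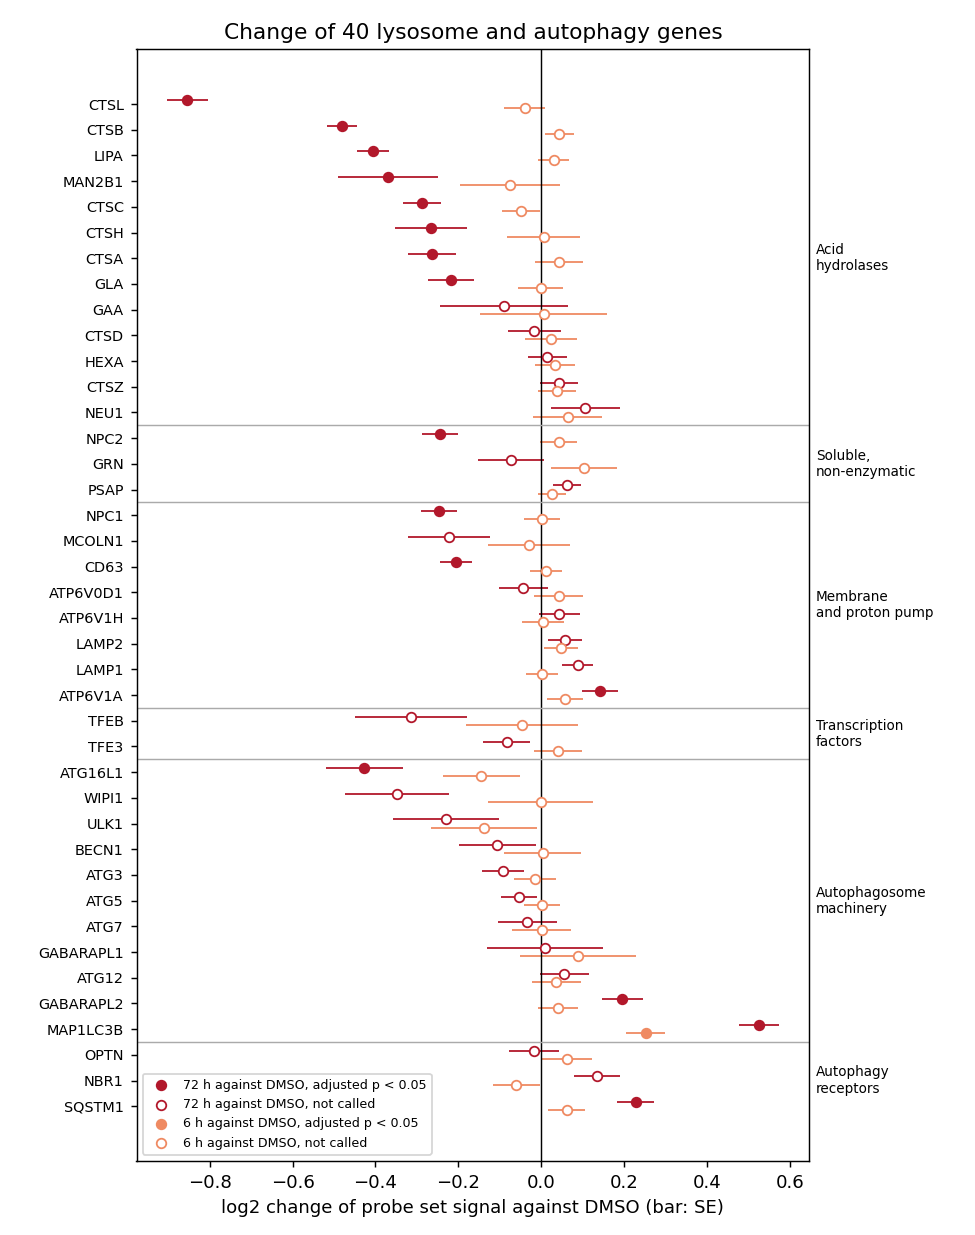
Change of the 40 measured genes against DMSO, on a horizontal log2 axis, with genes down the page in groups by role. Dark points are 72 h and light points 6 h, filled where the adjusted p was below 0.05, with bars for the standard error. CTSL lies farthest left at 72 h (-0.85) and MAP1LC3B farthest right (0.53), and the 6 h points lie between -0.14 and 0.25.

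As to the arrays as a whole, 72 h replicates 2 and 3 had upper quartiles of signal of 97.5 and 99.7, and the other arrays had 112 to 119. Within groups the SD of log2 signal had a median over genes of 0.129 at 72 h, 0.075 at 6 h and 0.0666 in DMSO. The ratio of 3' to 5' signal of ACTB, a sign of RNA quality, was 2.07 to 2.21 on the 72 h arrays, 1.74 to 2.05 on the 6 h arrays and 1.91 to 2.01 on the DMSO arrays. All 6 ductal markers listed (KRT7, KRT8, KRT18, KRT19, SOX9 and EPCAM) passed the minimum. Their summed signal was 27420 to 29270 at 72 h, 34610 to 34750 at 6 h and 34250 to 35110 in DMSO, and KRT7, KRT8 and KRT18 fell at 72 h (log2 -1.07, -0.47 and -0.29). Of 8 markers of macrophages and other leukocytes, cells rich in lysosomes, 6 lay below the minimum, among them PTPRC, CD14 and CSF1R, and ITGAM and MARCO lay near it. Their summed signal was 73.99 to 112 at 72 h, 94.1 to 102 at 6 h and 101 to 111 in DMSO. Of 5 acinar markers 3 were measured, and CELA3A alone passed the minimum. The part of RNA quality and of the lower keratins in the results below was not tested. In RNA from a whole culture, fewer cells of a kind and less RNA per cell cannot be told apart.

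Acid hydrolases. Of 13 measured hydrolases 8 fell at 72 h, 0 rose and 5 did not pass, with a median log2 change of -0.26. Of all 12678 genes 18.3% were called lower and 8.33% higher, with a median of -0.062. A list of 29 other acid hydrolases, described below, had 5 higher and 5 lower, with a median of -0.051. The count of 8 was 5 without 72 h replicate 2, 5 without 72 h replicates 2 and 3, and 4 with median centring. Cathepsins made up 5 of the 8. CTSL encodes cathepsin L, a cysteine protease of broad specificity. Its signal was 514, 499 and 498 on the 72 h arrays, 925, 885 and 849 on the 6 h arrays, and 922, 905 and 904 on the DMSO arrays. Every 72 h array lay far below every other array, while the 6 h and DMSO arrays overlapped. The mean was 504 ± 8.96 at 72 h and 911 ± 10.2 in DMSO (SD, n = 3 each), a fold of 0.553 (log2 -0.85 ± 0.049, SE, limma adjusted p = 1.49e-08), the largest change of any of the 40 genes.

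CTSB encodes cathepsin B, a cysteine protease that is also secreted by many carcinomas. Its signal was 1781, 1722 and 1741 on the 72 h arrays, 2529, 2550 and 2463 on the 6 h arrays, and 2443, 2442 and 2431 on the DMSO arrays. It fell to a fold of 0.717 at 72 h (log2 -0.48 ± 0.035, limma adjusted p = 1.97e-07), and at 6 h all arrays lay above all DMSO arrays without passing the test (log2 0.044 ± 0.035). Its 4 further probe sets above the minimum fell too at 72 h, by 0.44, 0.56, 0.80 and 0.81 on the log2 scale.

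CTSC encodes cathepsin C, a dipeptidyl peptidase that activates other proteases. It had 789, 780.2 and 742 on the 72 h arrays, 889, 904 and 933 on the 6 h arrays, and 946, 923 and 951 on the DMSO arrays. The brightest probe set, which stands for the gene here, gave log2 -0.29 ± 0.047 (limma adjusted p = 0.000345). Another pair of CTSC probe sets fell by 0.62 and 0.63, and a dim one gave -0.53 without passing, so the size of the CTSC change depended on the probe set.

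CTSA encodes cathepsin A, a carboxypeptidase that also protects other hydrolases in a complex. Its signal was 829, 904 and 849 at 72 h, 1137, 1046 and 1011 at 6 h, and 1034, 975 and 1089 in DMSO (log2 at 72 h -0.26 ± 0.058, limma adjusted p = 0.00335). CTSH, an aminopeptidase, had 279.6, 231 and 227 at 72 h, 311, 295 and 282 at 6 h, and 279.7, 312 and 293 in DMSO (log2 -0.27 ± 0.087, limma adjusted p = 0.0336). Its first 72 h array was level with the lowest DMSO array, and its call held under 12 of 22 alternatives. CTSD, the aspartic protease cathepsin D, averaged 417 ± 22.2 at 72 h and 421 ± 20.4 in DMSO, with a 95% interval of 0.900 to 1.09 for the fold. CTSZ, a carboxypeptidase of the cysteine class, averaged 1439 ± 64.9 at 72 h and 1396 ± 40.9 in DMSO, with an interval of 0.963 to 1.10. Among the 5 cysteine cathepsins measured of the named genes (CTSB, CTSC, CTSH, CTSL and CTSZ), 4 fell and CTSZ did not pass. Of all genes 18.3% were called lower. A further cathepsin, CTSV, is counted in the list of other acid hydrolases. It had 333, 280.1 and 279.9 at 72 h, 389, 383.4 and 375.6 at 6 h, and 373.4, 349.3 and 357.7 in DMSO.

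**Figure D2:**
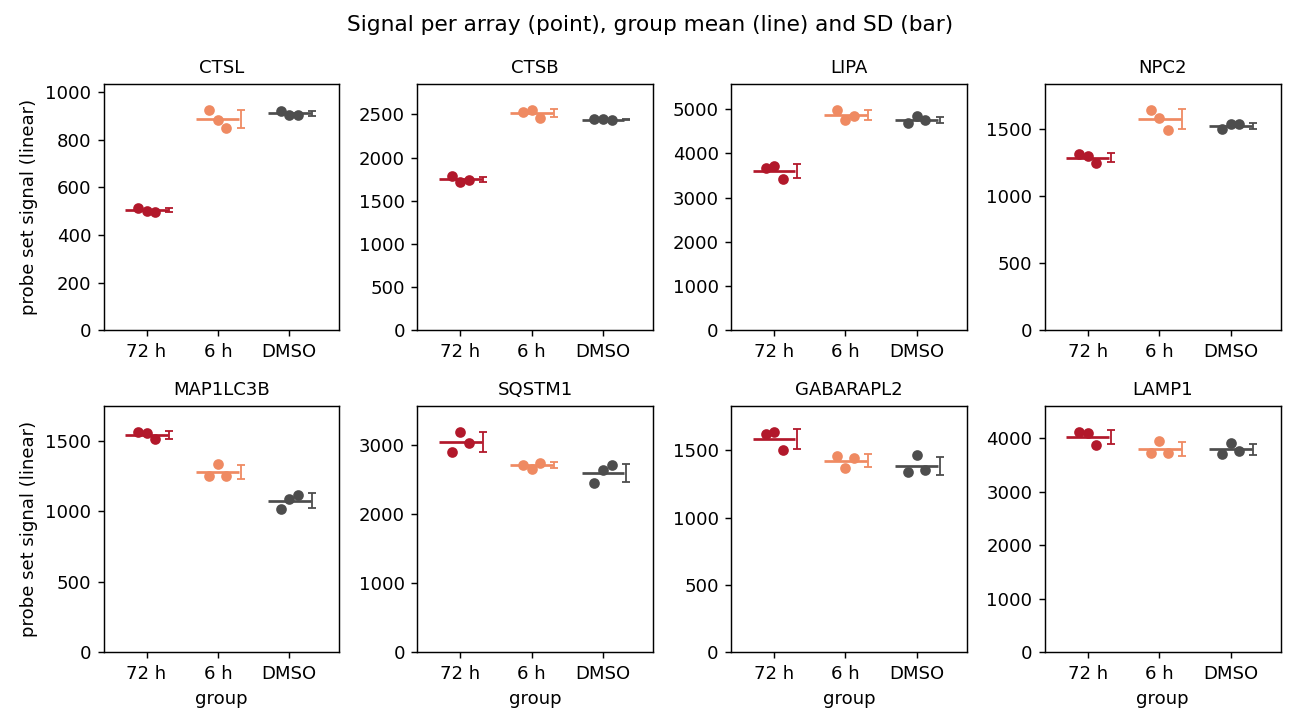
Probe set signal on a linear axis that starts at 0, for 8 genes, with 72 h, 6 h and DMSO from left to right; points are arrays, lines group means and bars SD. For CTSL, CTSB, LIPA and NPC2 the 72 h points lie below all others, for MAP1LC3B the groups form 3 separate levels, and LAMP1 is shown as a gene that did not pass the test.

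Outside the cathepsins 3 of 6 hydrolases fell. LIPA encodes the acid lipase that frees cholesterol and fatty acids from lipoprotein lipids. Its signal was 3672, 3702 and 3407 on the 72 h arrays, 4977, 4755 and 4847 on the 6 h arrays, and 4689, 4833 and 4749 on the DMSO arrays. The 72 h arrays stood apart, with a fold of 0.755 (log2 -0.41 ± 0.038, limma adjusted p = 2.1e-06). GLA, the alpha-galactosidase A that is deficient in Fabry disease, had 1047, 921 and 961 at 72 h, 1212, 1095 and 1093 at 6 h, and 1130, 1125 and 1144 in DMSO (log2 -0.22 ± 0.055, limma adjusted p = 0.00899).

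MAN2B1, the lysosomal alpha-mannosidase, was dim, with 69.6, 53.6 and 61.9 at 72 h, 75.8, 72.2 and 78.0 at 6 h, and 77.4, 82 and 78.5 in DMSO (log2 -0.37 ± 0.12, limma adjusted p = 0.034). That call held under 6 of 21 alternatives. GAA, HEXA and NEU1, which split glycogen, gangliosides and sialic acid, did not pass (log2 -0.090, 0.015 and 0.11 at 72 h). For HEXA the 95% interval of the fold was 0.942 to 1.08, and for the dim GAA it was wider, 0.748 to 1.18.

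Soluble proteins that assist the hydrolases differed among themselves. NPC2, which binds cholesterol in the lumen and passes it to NPC1, had 1319, 1302 and 1249 at 72 h, 1645, 1583 and 1496 at 6 h, and 1502, 1539 and 1542 in DMSO (log2 -0.24 ± 0.045, limma adjusted p = 0.000892). PSAP, the precursor of the saposins that help break down sphingolipids, averaged 6988 ± 93.0 at 72 h and 6694 ± 224 in DMSO and did not pass (adjusted p = 0.196). GRN, progranulin, did not pass either (log2 -0.074 ± 0.080).

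Membrane proteins and the proton pump. Of 8 genes measured, NPC1 and CD63 fell, ATP6V1A rose and 5 did not pass, with a median log2 change of 0.0007. NPC1, the membrane protein that exports cholesterol, had 1073, 1074 and 1002 at 72 h, 1259, 1235 and 1243 at 6 h, and 1241, 1269 and 1223 in DMSO (log2 -0.25 ± 0.044, limma adjusted p = 0.000705). With the mean of all NPC1 probe sets the call was lost (log2 -0.12, limma adjusted p = 0.36), and so it was with median centring. The further NPC1 probe sets in that mean all lay below the minimum, with mean signals of 10.9, 15.8 and 6.66. LIPA, NPC2 and NPC1 act one after the other on lysosomal cholesterol, and for each of them every 72 h array lay below every other array. Groups did not overlap for 36.9% of all genes at 72 h against DMSO and for 33.7% between the times. These genes were not tested as a set, and with median centring the NPC2 call was lost as well (limma adjusted p = 0.0753). CD63, a tetraspanin of late endosomes and lysosomes, had 5384, 5170 and 5104 at 72 h, 6108, 5888 and 6192 at 6 h, and 6132, 5708 and 6214 in DMSO (log2 -0.20 ± 0.039, limma adjusted p = 0.0011).

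LAMP1 and LAMP2, the main glycoproteins of the lysosomal membrane, did not pass. LAMP1 averaged 4033 ± 129.5 at 72 h and 3794 ± 100.3 in DMSO (fold interval 1.004 to 1.13, adjusted p = 0.108). Its 3 further probe sets above the minimum differed in sign, with log2 0.12, -0.12 and -0.15 at 72 h, and were not called. LAMP2 averaged 2666 ± 132 at 72 h and 2560 ± 38.1 in DMSO. One of the 3 further LAMP2 probe sets was called higher, with 1420, 1381 and 1429 at 72 h and 1200, 1260 and 1213 in DMSO (log2 0.20 ± 0.050). MCOLN1, a calcium channel of the lysosome, had log2 -0.22 ± 0.099 at 72 h and did not pass (adjusted p = 0.115).

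ATP6V1A, the catalytic subunit of the proton pump, had 2385, 2411 and 2213 at 72 h, 2170, 2220 and 2213 at 6 h, and 2161, 2170 and 2018 in DMSO. Its 72 h arrays lay above all DMSO arrays, by a fold of 1.10 (log2 0.14 ± 0.043, limma adjusted p = 0.0245), a call that held under 14 of 22 alternatives. The pump subunits ATP6V0D1 and ATP6V1H did not pass, with log2 -0.043 and 0.044.

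Neither transcription factor was called. TFEB was dim, with 54.9, 43.3 and 54.1 at 72 h, 53.9, 66.4 and 62.6 at 6 h, and 58.5, 66.8 and 63.1 in DMSO, so that the 72 h arrays lay below all DMSO arrays (log2 -0.31 ± 0.14, adjusted p = 0.105). TFE3 averaged 672 ± 30.8 at 72 h and 712 ± 29.7 in DMSO. These factors are known to be controlled mainly by where in the cell the protein is, which an RNA array does not measure.

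Promoter letters are given here because TFEB and TFE3 bind CACGTG within the CLEAR element and because 11 lysosomal genes fell at 72 h. RefSeq windows (GRCh38.p14) of 250 bases before and 50 after a gene's start were found for 35 of the 42 genes. CACGTG, which reads the same on both strands, was in the windows of 9 genes (25.7%), against 7.26% of all 35116 windows and 12.7% of the 10271 tested genes with a window. TCACGTGA, which contains it, was in 6 genes (17.1%, against 2.24% of tested genes). The full element GTCACGTGAC was in GAA and MCOLN1 (0.876% of tested genes). The stretches below, 5' to 3' on the + strand with CACGTG in capitals, are the 100 bases before the start, and for LAMP1 bases 200 to 121 before it, which hold 4 of its 6 copies. GAA and MCOLN1 are shown for the full element. LAMP1, CTSA, CTSL and MAP1LC3B were picked after their values were seen, as a gene with many copies, a gene that fell with a copy, and the genes with the largest fall and rise.
GAA, chr17:80101481-80101580: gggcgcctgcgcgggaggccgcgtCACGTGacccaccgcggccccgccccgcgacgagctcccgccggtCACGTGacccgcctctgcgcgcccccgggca
MCOLN1, chr19:7522524-7522623: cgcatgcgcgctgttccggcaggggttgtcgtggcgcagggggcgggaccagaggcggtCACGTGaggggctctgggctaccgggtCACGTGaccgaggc
LAMP1, chr13:113297039-113297118: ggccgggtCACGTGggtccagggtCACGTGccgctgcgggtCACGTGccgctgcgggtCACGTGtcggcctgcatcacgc
CTSA, chr20:45891235-45891334: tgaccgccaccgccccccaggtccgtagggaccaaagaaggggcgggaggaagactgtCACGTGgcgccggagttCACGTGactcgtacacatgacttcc
CTSL, chr9:87726019-87726118: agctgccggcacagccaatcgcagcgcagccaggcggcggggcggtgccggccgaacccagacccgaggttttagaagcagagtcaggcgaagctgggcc
MAP1LC3B, chr16:87392236-87392335: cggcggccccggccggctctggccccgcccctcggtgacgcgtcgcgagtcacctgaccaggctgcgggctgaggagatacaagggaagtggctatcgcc

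Changes at 72 h were set beside these letters without a test. Of the 9 genes with CACGTG (ATG3, ATP6V0D1, CD63, CTSA, CTSD, GAA, LAMP1, MCOLN1 and NEU1) 0 rose and 2 fell at 72 h, CTSA and CD63, with a median log2 change of -0.090. Of 25 measured genes with a window but no CACGTG, 3 rose and 9 fell, with a median of -0.11. The windows of CTSL and MAP1LC3B held none. TGATGNAA, the composite motif bound by the stress factor ATF4 and searched on both strands, was in 0 of the 35 genes and in 2.68% of tested genes. A match of letters is a description and does not show binding.

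Autophagosome genes. MAP1LC3B encodes LC3B, the protein whose attachment to lipid marks autophagosomes, and was the 1 gene of the 40 called at both times. Its signal was 1562, 1558 and 1512 on the 72 h arrays, 1250, 1335 and 1250 on the 6 h arrays, and 1015, 1086 and 1119 on the DMSO arrays. The 3 groups did not overlap, with 72 h highest, 6 h between and DMSO lowest. Means were 1544 ± 27.9 at 72 h, 1278 ± 49.2 at 6 h and 1073 ± 53.4 in DMSO (SD, n = 3 each). The rise against DMSO was 1.44-fold at 72 h (log2 0.53 ± 0.048, limma adjusted p = 1.57e-06) and 1.19-fold at 6 h (log2 0.25 ± 0.048, limma adjusted p = 0.026), and the further rise at 72 h over 6 h was 1.21-fold (log2 0.27 ± 0.048, limma adjusted p = 0.000808).

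A further MAP1LC3B probe set had 1574, 1453 and 1473 at 72 h, 1134, 1137 and 1088 at 6 h, and 1039, 998 and 1035 in DMSO. It was called at 72 h (log2 0.55 ± 0.047) and not at 6 h (log2 0.13 ± 0.047), though its 6 h arrays also lay above all DMSO arrays. The 6 h call of MAP1LC3B depended on single arrays. It ended without 72 h replicate 2, without 6 h replicate 2 or 3, and without DMSO replicate 1 or 2 (limma adjusted p = 0.0565 to 0.216, log2 0.21 to 0.28 over the 9 fits that each left out 1 array). The gene has a close copy, MAP1LC3B2, with a probe set of its own, and cross-hybridisation between them was not tested.

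Other proteins of this family differed. GABARAPL2, also called GATE-16, had 1619, 1636 and 1503 at 72 h, 1458, 1369 and 1446 at 6 h, and 1341, 1463 and 1351 in DMSO. It rose 1.15-fold at 72 h (log2 0.20 ± 0.049, limma adjusted p = 0.0083), with every 72 h array above every other. The call was lost with median centring (limma adjusted p = 0.0597) and without the variance trend (limma adjusted p = 0.0506). GABARAPL1 was dim and did not pass, at 65.3 ± 5.77 at 72 h and 64.8 ± 3.0 in DMSO, with a fold interval of 0.818 to 1.24.

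ATG16L1, which places the LC3 conjugation complex on the growing membrane, was the 1 autophagosome gene that fell at 72 h. Its signal was 186, 167 and 149 at 72 h, 192, 208 and 208 at 6 h, and 215, 222 and 236 in DMSO. The 3 groups did not overlap, and the fold at 72 h was 0.744 (log2 -0.43 ± 0.092, limma adjusted p = 0.00312), while at 6 h it did not pass (log2 -0.14 ± 0.092). The conjugation enzymes ATG3 and ATG7 and the conjugate ATG5 and ATG12 did not pass, with log2 changes at 72 h of -0.092, -0.034, -0.055 and 0.056. For ATG12 another probe set was called lower, with 338, 276 and 243 at 72 h and 347, 398 and 366 in DMSO (log2 -0.39 ± 0.10, limma adjusted p = 0.038), so its probe sets disagreed.

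Genes that start autophagosome formation were not called, though for WIPI1 and ULK1 this depended on the settings. WIPI1, which reads a lipid signal on the forming membrane, had 119, 87 and 101 at 72 h, 116, 129 and 145 at 6 h, and 128, 139.7 and 121 in DMSO (log2 -0.35 ± 0.13, adjusted p = 0.0538). A further WIPI1 probe set had log2 -0.37 ± 0.14 and was not called. WIPI1 was called under a filter at the upper quartile, with the mean of its probe sets, with array weights and without 72 h replicate 1. ULK1, the kinase that starts the process, had log2 -0.23 ± 0.13 and was called without 72 h replicate 1. BECN1, a subunit of the lipid kinase complex, had -0.11 ± 0.093.

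Autophagy receptors carry cargo to LC3. SQSTM1 encodes p62 and had 2905, 3192 and 3036 at 72 h, 2715, 2663 and 2751 at 6 h, and 2449, 2640 and 2708 in DMSO. It rose 1.17-fold at 72 h (log2 0.23 ± 0.045, limma adjusted p = 0.00154), with every 72 h array above every other. A second SQSTM1 probe set rose as well (log2 0.32), and a dim pair gave -0.014 and 0.098 without passing. Another lay below the minimum, with a mean signal of 15.8, and enters the mean of all probe sets. The 72 h call of SQSTM1 was lost with the mean of all its probe sets (log2 0.13, limma adjusted p = 0.263), with the probe set of largest spread (log2 0.098, limma adjusted p = 0.692) and without 72 h replicates 2 and 3 (log2 0.16, limma adjusted p = 0.0846). NBR1, a receptor built like p62, had 466, 458 and 467 at 72 h, 397, 420.3 and 397 at 6 h, and 412, 431 and 423 in DMSO. It did not pass against DMSO (log2 0.14 ± 0.057, adjusted p = 0.0935) and was higher at 72 h than at 6 h (log2 0.20 ± 0.057, limma adjusted p = 0.0206). The 1 further NBR1 probe set above the minimum had the opposite sign, with log2 -0.13 ± 0.13 against 6 h and -0.26 ± 0.13 against DMSO, and was not called. With the mean of all NBR1 probe sets the call between the times was lost (log2 0.11, limma adjusted p = 0.465). That mean includes probe sets below the minimum, with mean signals of 7.92 and 7.83. OPTN, a receptor for damaged mitochondria and bacteria, had log2 -0.017 ± 0.061.

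**Figure D3:**
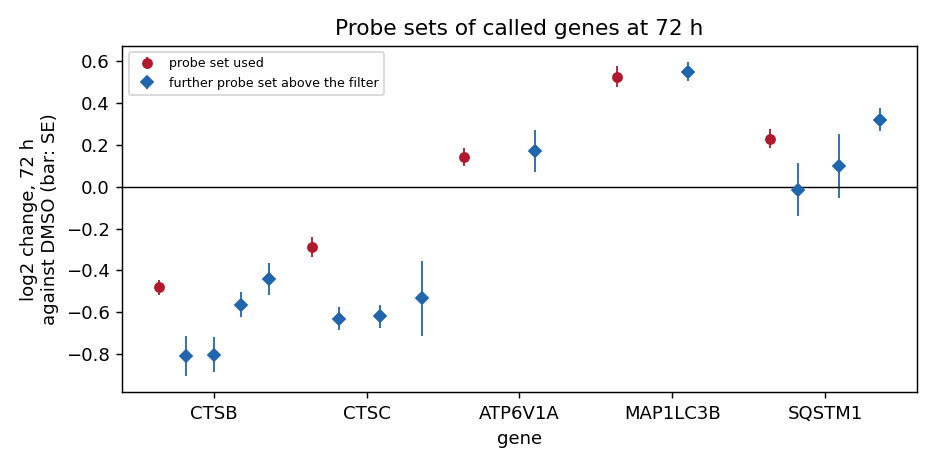
Log2 change at 72 h against DMSO (vertical axis, bars are standard errors) for each probe set above the minimum of the 5 called genes that had more than 1. Circles are the probe sets that stand for the gene and diamonds the further ones. Of 12 further probe sets 11 had the same sign, 8 were called the same way and 0 the opposite way, and the exception in sign is a dim SQSTM1 probe set (-0.014).

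Over all 78 probe sets of these genes above the minimum, 6 were called higher and 17 lower at 72 h, in a fit of all 54675 probe sets in which 7.43% were called. At 6 h 0 of the 78 were called in that fit, in which 0.0732% of probe sets were called and MAP1LC3B had an adjusted p of 0.192. Between the times 4 of the 78 were called higher at 72 h and 15 lower, where 6.42% of all probe sets were called. These shares of all 54675 include probe sets below the minimum, so they are not a like background for the 78. Among the 12678 genes at or above the minimum, in their own fit, 26.6% were called at 72 h and 24% between the times.

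Between the times, 4 of the 40 genes were higher at 72 h than at 6 h (SQSTM1, NBR1, MAP1LC3B and GABARAPL2) and 11 were lower (CTSA, CTSB, CTSC, CTSH, CTSL, GLA, LIPA, NPC2, CD63, NPC1 and ATG16L1), while 24% of all genes were called (7.28% higher and 16.7% lower). All 10 lysosomal genes lower at 72 h than at 6 h were also lower than DMSO, in comparisons that share the 72 h arrays. The median log2 change was -0.19 over the lysosomal genes and -0.068 over the autophagosome genes, against -0.060 over all genes. At 6 h none of the 24 lysosomal genes was called against DMSO, and the 95% intervals of their folds lay between 0.794 and 1.26. Groups did not overlap for 3 of the 40 genes at 6 h (12.2% of all genes), for 21 at 72 h (36.9%) and for 16 between the times (33.7%).

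**Figure D4:**
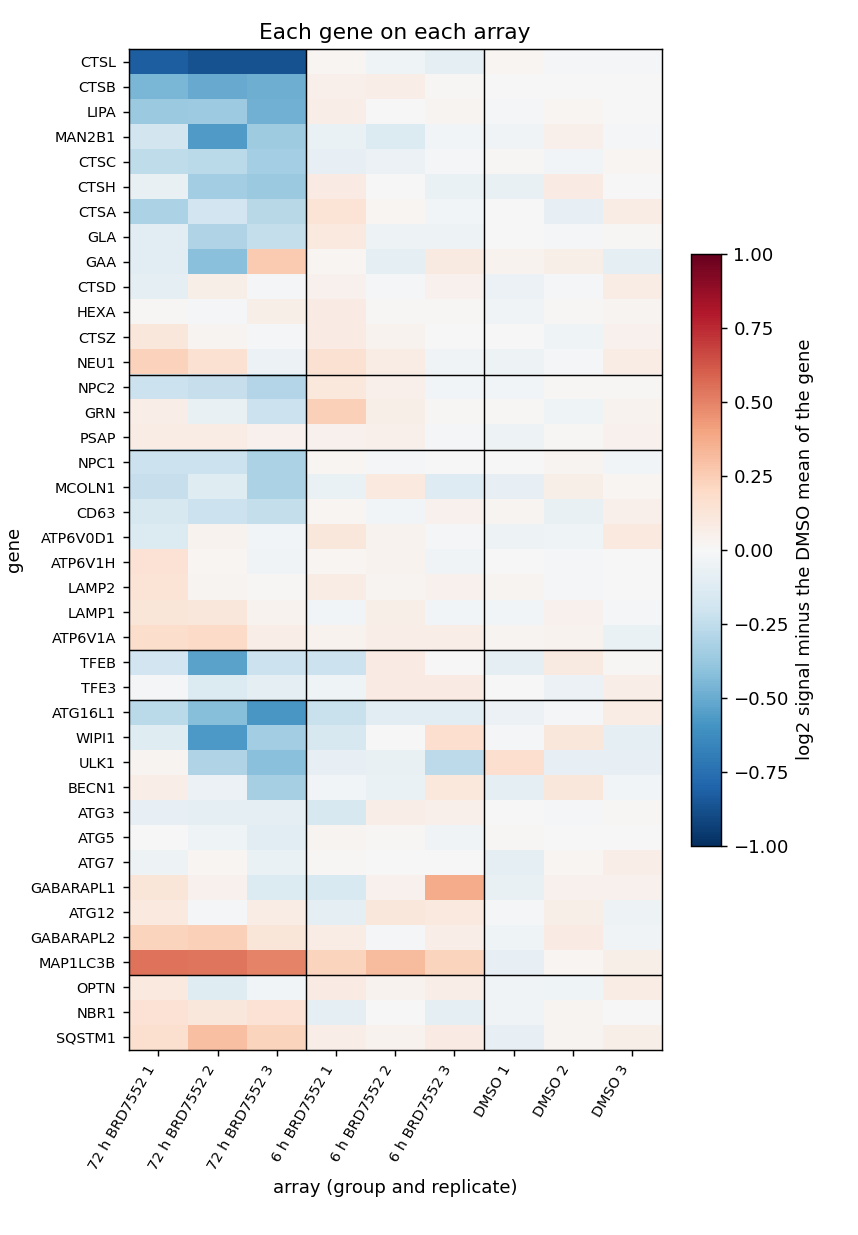
Log2 signal of each gene on each array minus the gene's DMSO mean, in colour (blue lower, red higher, scale -1 to 1), with 72 h, 6 h and DMSO arrays from left to right and genes in groups by role. The blue block at the upper left holds the 8 hydrolases that fell, and MAP1LC3B is red on all 72 h and 6 h arrays.

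The 72 h arrays varied among themselves. The median deviation of the lysosomal genes from their DMSO mean was -0.11, -0.16 and -0.23 log2 units on 72 h replicates 1, 2 and 3, against 0.0024, -0.12 and -0.059 over all genes. For the cathepsins it was -0.25, -0.27 and -0.34. On replicate 1, whose upper quartile of signal was 117, single cathepsins ran from -0.82 (CTSL) to 0.12 (CTSZ). The part of signal level in these values was not tested. With 72 h replicates 2 and 3 both left out, a choice made after seeing the data, 9 of the 16 genes were still called at 72 h: CTSA, CTSB, CTSC, CTSL, LIPA, NPC2, NPC1, MAP1LC3B and GABARAPL2. The lone 72 h array was then assumed to vary like the other groups. The share of all called genes that were lower was 68.7%, against 44.8% in that fit, 54.3% after quantile normalization, 52.5% after cyclic loess and 60.7% after median centring.

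Calls near the threshold depended on single arrays. MAN2B1 lost its call at 72 h in 7 of 9 fits that each left out 1 array, all but those without 72 h replicate 1 or 6 h replicate 1 (log2 -0.46 to -0.27, limma adjusted p = 0.0529 to 0.114 where lost). CTSH lost it without 72 h replicate 2 or 3, 6 h replicate 2, or DMSO replicate 2 or 3 (log2 -0.36 to -0.21, limma adjusted p = 0.0502 to 0.129 where lost). ATP6V1A lost it without 72 h replicate 1 or 2 or DMSO replicate 3 (log2 0.13, 0.12 and 0.11), and GLA without 72 h replicate 2 (log2 -0.18). The other 12 calls at 72 h held in all 9 of these fits. CTSL, CTSB, LIPA and MAP1LC3B were called at 72 h under all 22 alternatives tried.

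Other genes of the pathway, in 9 lists of 204 genes with 175 measured, give the setting. At 72 h 22 rose, 26 fell and 127 did not pass, with a median log2 change of -0.03. The share called was 27.4%, near the 26.6% of all genes, so these counts show nothing particular to the pathway, and by list the share ran from 11.1% (enzyme sorting) to 46.2% (13 proton pump subunits). At 6 h 0 of the 175 were called (by limma's unadjusted p under 0.05, 582 of all 12678 genes passed at 6 h). Among 29 other acid hydrolases 5 rose and 5 fell. IDS, the iduronate sulfatase, rose, with 1905, 2038 and 1917 at 72 h and 1438, 1497 and 1444 in DMSO (log2 0.42). ARSA, arylsulfatase A, fell (log2 -0.46), as did HGSNAT (log2 -0.36). HGSNAT acetylates heparan sulfate, so it is not a hydrolase, though it is counted in this list. The median log2 change of these 29 genes was -0.051, against -0.26 for the 13 hydrolases above, a difference that was not tested.

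Among 24 other lysosomal membrane proteins 3 rose and 6 fell. LAMP3, a membrane protein of dendritic cells and many tumours, had 123, 117 and 113 at 72 h, 79.1 on each of the 3 arrays at 6 h, and 62.0, 68.2 and 67.1 in DMSO. It rose 1.79-fold (log2 0.84, limma adjusted p = 2.99e-05), and the equal values at 6 h are as deposited. SLC17A5, the exporter of sialic acid, rose 1.48-fold (log2 0.57), and TMEM63A, an ion channel, fell (log2 -0.48).

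Of 13 other proton pump subunits 4 rose and 2 fell. The alternative membrane subunits moved in opposite ways, with ATP6V0A1 at log2 0.57 and ATP6V0A2 at -0.48, and the accessory subunit ATP6AP1 rose (log2 0.26). In enzyme sorting, SUMF1, which activates sulfatases, rose (log2 0.38), AP3B1, an adaptor of lysosomal membrane proteins, fell (log2 -0.29), and 16 of 18 did not pass. Of 24 genes of nutrient sensing at the lysosome, LAMTOR4, a subunit of the Ragulator complex, rose (log2 0.31) and 4 fell, among them the GTPase RRAGA (log2 -0.25) and FNIP2 (log2 -0.29).

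Of 30 other genes of autophagosome formation 3 rose and 4 fell. ATG13, a partner of ULK1, rose (log2 0.32), and TMEM41B, a lipid scramblase needed for the membrane to grow, fell, with 2316, 2246 and 2299 at 72 h and 3093, 2979 and 2993 in DMSO (log2 -0.40). SH3GLB1, a membrane-bending partner of the BECN1 complex, fell (log2 -0.29). Of 16 other autophagy receptors 4 rose, 0 fell and 12 did not pass. The share called was 25%, near the 26.6% of all genes, and the median log2 change was -0.0064. Among the 4 were the mitochondrial receptors BNIP3L (log2 0.39) and FUNDC1 (log2 0.24) and the receptor CALCOCO2, known as NDP52 (log2 0.21).

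For fusion of autophagosomes with lysosomes, EPG5, a tether, fell, with 133, 113 and 105 at 72 h and 172, 185 and 179.9 in DMSO (log2 -0.63, limma adjusted p = 0.000687). YKT6, a SNARE protein, fell too (log2 -0.39), BLOC1S1, a subunit of complexes that position lysosomes, rose (log2 0.26), and 13 of 16 did not pass. Of 5 measured inhibitors of cathepsins, CST3 and CSTB, both cystatins, fell (log2 -0.27 and -0.16) in the arrays in which cathepsins were lower.

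**Figure D5:**
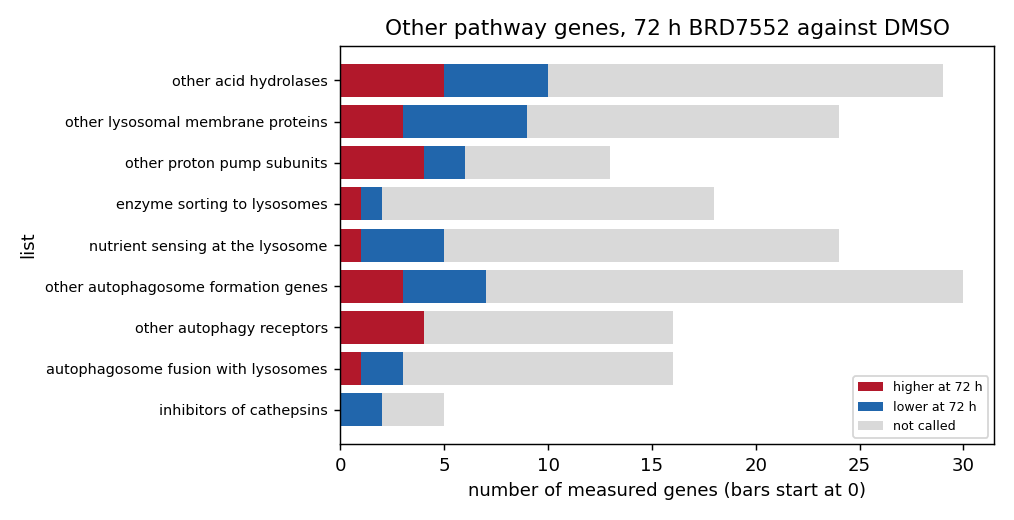
Number of measured genes called higher, called lower or not called at 72 h against DMSO in 9 lists of other pathway genes (bars start at 0). The list of other acid hydrolases, which counts HGSNAT among those lower, splits evenly, 5 higher and 5 lower of 29. The other receptors hold 4 higher and 0 lower of 16. Their share called was 25%, near the 26.6% of all genes, and their median log2 change was -0.0064.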

How the data were processed

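Biotin-labelled RNA of 9 PANC-1 samples was hybridised to Affymetrix arrays. The authors deposited linear intensity values per probe set, and MAS5 is named in the submitters' processing notes, with settings not given in the sources used here. Equal values on several arrays occurred for 59.2% of probe sets and 11 of the 40 genes, which is unusual for MAS5 and can make a spread too small. Called genes among the 11 are MAP1LC3B, ATG16L1 and ATP6V1A. MAP1LC3B, which holds the only call at 6 h, had 1250 on 6 h replicates 1 and 3. ATG16L1 had 208.3 on 6 h replicates 2 and 3, and ATP6V1A had 2213 on 72 h replicate 3 and 6 h replicate 3. Values were used as deposited and log2 transformed. Probe sets with 1 symbol in the platform table (41097) named the genes, with the brightest probe set per gene, and 12678 genes at or above the median probe set (log2 4.15) were kept. Linear models with a mean-variance trend (limma 3.58.1, R 4.3.3) used all 9 arrays and 6 residual degrees of freedom, and Benjamini-Hochberg adjustment ran over all 12678 genes. Groups shared 1 estimate of spread although the 72 h arrays varied more, so p-values at 72 h may be too small. Further probe sets come from a fit of all 54675 without the minimum, and intervals are 95% intervals from the fit. Precision is limited by 3 arrays per group.

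The 42 genes and the lists were chosen with earlier results of these data known. Named genes were the 42 and up to 3 called genes per further list with the largest change. Alternatives were another normalization, offset, filter, probe set rule, variance model or array weights, the 2 groups compared alone, a replicate block, and each array left out. The script was tested on simulated data, where a limit on false calls was required only with the same spread in all groups. That test therefore does not bear on p-values under the wider spread at 72 h. Same-numbered arrays were checked for shared deviations, and the correlations of 9 pairs ran from -0.26 to 0.20, with 4 over 0.1. With 3 arrays per group this check cannot decide whether same-numbered arrays share a batch, and they were not treated as pairs.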

Additional observations from a re-analysis of the deposited data

Results flagged for a closer look

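For 15 of the 40 genes the change against DMSO differed between 72 h and 6 h, by the limma test of 72 h against 6 h (adjusted p below 0.05). The difference, in log2 units at 72 h minus 6 h, was -0.81 for CTSL, -0.52 for CTSB, -0.44 for LIPA, -0.31 for CTSA, -0.29 for NPC2, -0.28 for ATG16L1, -0.27 for CTSH, -0.25 for NPC1, -0.24 for CTSC, -0.22 for CD63 and -0.22 for GLA. It was 0.27 for MAP1LC3B, 0.20 for NBR1, 0.17 for SQSTM1 and 0.15 for GABARAPL2. For CTSL, CTSB and LIPA the 6 h value lay within 0.05 log2 units of DMSO, whereas MAP1LC3B had moved the same way at both times. Among all genes 24% were called between the times. The calls of CTSA, CTSB, CTSC, CTSL, LIPA, NPC2, CD63, NPC1 and MAP1LC3B held without any 1 array. ATG16L1 lost its call in 7 of 9 such fits, all but those without 72 h replicate 1 or 6 h replicate 1 (log2 -0.36 to -0.20). CTSH lost it without 72 h replicate 2 or 3, 6 h replicate 1 or 2, or DMSO replicate 3 (log2 -0.37 to -0.22). GABARAPL2 lost it without 72 h replicate 1 or 2 or 6 h replicate 2 or 3 (log2 0.13 to 0.19), and GLA without 72 h replicate 2 or 6 h replicate 1 (log2 -0.27 to -0.17). SQSTM1 lost it without 72 h replicate 2 or 6 h replicate 2 (log2 0.13 to 0.20), and NBR1 without 6 h replicate 1 or 3 (log2 0.18 to 0.22). Groups of 3 arrays are too small for a test of single outlying arrays.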

How the results depend on the processing

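Under 22 alternatives the 16 calls at 72 h kept their direction throughout, and 49 of 350 single-gene results no longer passed. Of 13 hydrolases tested 4 to 8 were called lower at 72 h and 0 higher. Without the filter 14 were tested, and with the filter at the upper quartile 11. Some genes gained a call at 72 h against DMSO. They were NBR1 (quantile and cyclic loess), LAMP2 and ATG5 (largest spread), and WIPI1 and ULK1 as given above. Between the times SQSTM1 changed sign with the mean of all probe sets (-0.0036) and with the probe set of largest spread (-0.12). Those rules bring in other probe sets, and for the values that follow the cause was not tested. Genes called at 6 h numbered 37 with median centring, 23 with the mean of probe sets, 38 with the probe set of largest spread, 23 without the variance trend and 211 with array weights, against 60, and 28 to 71 with 1 array left out. The 1 call of the 40 genes at 6 h became 0 under median centring, no filter on low values, either other probe set rule, no variance trend, the 2 groups alone, and without 72 h replicates 2 and 3, and 0 to 1 with 1 array left out. At 72 h median centring left 2086 genes called and 7 of the 40 (2 higher, 5 lower: CTSB, CTSC, CTSL, LIPA, ATG16L1, SQSTM1 and MAP1LC3B), and leaving out 72 h replicates 2 and 3 left 9 (2 higher, 7 lower). With the mean of probe sets, or without the variance trend, 2 were higher. With 1 array left out 12 to 17 of the 40 were called (3 to 4 higher, 9 to 14 lower), of 2294 to 4224 genes. The lysosomal median at 72 h was -0.067 (quantile), -0.062 (cyclic loess) and -0.21 (largest spread), and -0.18 to -0.13 with 1 array left out. The autophagosome median was -0.15 (largest spread), 0.083 (without 72 h replicates 2 and 3), 0.017 (quantile), 0.036 (cyclic loess) and 0.012 (median centring), and -0.061 to 0.01 with 1 array left out. Between the times, median centring left 1782 genes and 6 of the 40 (1 higher, 5 lower), and leaving out 72 h replicates 2 and 3 left 1875 genes and 8 (1 higher, 7 lower), with 2 higher under the mean of probe sets and without the variance trend. With 1 array left out 10 to 17 were called (2 to 4 higher, 8 to 14 lower), of 2125 to 4000 genes. The lysosomal median was -0.094 (quantile), -0.093 (cyclic loess) and -0.11 (without both arrays), and -0.21 to -0.14. The autophagosome median turned positive at 0.039 (quantile), 0.043 (cyclic loess) and 0.0497 (without both arrays), and ran from -0.083 to -0.0043.

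With the replicate block 1 of the 40 genes was called at 6 h, 15 at 72 h (without MAN2B1) and 14 between the times (without ATG16L1). The check of same-numbered arrays could not decide whether such a pairing exists. The dim genes GAA, TFEB and MAN2B1 had standard errors of 0.12 to 0.15, which limits what can be detected in them.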

Other observations

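Genes whose log2 signal over the 9 arrays was most like that of MAP1LC3B, by Pearson's r as a description, were BCOR (r = 0.988), a transcriptional corepressor, SLC1A4 (0.986), a transporter of neutral amino acids, ENTPD6 (0.983), SPPL3 (0.978) and HOXC4 (0.978). Like MAP1LC3B they had a positive log2 change at 72 h (0.25 to 1.03) and at 6 h (0.11 to 0.46). Nearest to CTSL were TMEM158 (0.997), the tetraspanin CD9 (0.996), the imprinted gene MEST (0.996), the neuropeptide galanin, GAL (0.995), and PYCARD (0.994), an inflammasome adaptor. Their log2 changes were -0.50 to -2.26 at 72 h and -0.018 to -0.071 at 6 h. The points are 9 arrays in 3 groups, so a high r mostly restates the group means.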
